A study of Mus musculus with 2 samples.

Results

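The subunits of the oxidative phosphorylation (OXPHOS) machinery that are encoded in the nucleus were followed in cultured neural stem/progenitor cells (NSPCs) sorted by their content of lipid droplets (LDs). Members were the genes of the deposited count table whose symbol marks a subunit of complex I to V, that is *Ndufa*, *Ndufb*, *Ndufc*, *Ndufs* and *Ndufv* genes, *Sdha* to *Sdhd*, *Uqcr* genes, *Cyc1*, *Cox4* to *Cox8* genes and *Atp5* genes. Rows whose symbol marks a pseudogene, 7 in all, were left out, among them *Ndufb1-ps*, which had 498 counts. *Ndufb4c*, which the GENCODE annotation lists as a processed pseudogene though its symbol does not, met the rule and is counted in complex I. This gave 80 of 15046 genes, with 36 in complex I, 4 in complex II, 9 in complex III, 14 in complex IV and 17 in complex V. *Ndufa4* was set with complex IV, and *Cox7a2l*, a factor that joins complexes into supercomplexes rather than a core subunit, stayed a member. The cells came from the subventricular zone of male C57/Bl6 mice of 6 to 8 weeks, were kept as neurospheres for at least 5 passages with EGF and FGF-2, and were then made into 1 stable line with a retrovirus for PLIN2-GFP, a fluorescent version of the LD coat protein perilipin 2. All groups carry this transgene and none was treated. Low and high PLIN2-GFP NSPCs stand for the bottom 25% and the top 25% of GFP signal, sorted alive as single cells into plates of 384 wells for SORT-seq, in which each captured mRNA molecule is counted once by its unique molecular identifier (UMI). A cell cycle phase and a cluster were deposited for every cell. Of the cells in the files, 95 were low and 84 were high on the first of 2 plates, and 72 were low and 53 were high on the second.

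Membrane complexes of the respiratory chain and ATP synthase carry out oxidative phosphorylation in the inner mitochondrial membrane. Complex I takes electrons from NADH and complex II, which is also a citrate cycle enzyme, takes them from succinate. Complex III passes them on to cytochrome c, complex IV hands them to oxygen, and the proton gradient built on the way drives complex V, the ATP synthase. All complexes but complex II also hold subunits encoded by mitochondrial DNA, so nuclear and mitochondrial transcripts have to be made side by side. Neural stem cells are known to lean on glycolysis as well as on fatty acid oxidation, and the reliance on OXPHOS grows as their progeny mature into neurons.

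All cells of a group on a plate were added up to 1 sum, since cells of 1 plate are not independent replicates. The sums held 801933 to 1029023 UMIs for the categories and 460368 to 767400 UMIs for the phases. Cells of the high category had more UMIs, with a median of 11709 against 7856 on plate 1 and 14729 against 11955 on plate 2. In the table, 11 cells had mitochondrial counts of 20% or more, although such cells were to be filtered out, and 3 members were called higher in high PLIN2-GFP NSPCs with or without them. Each category filled 8 well rows of a plate and 0 rows held both, so category and row cannot be told apart. The NSPC markers *Fabp7*, *Vim*, *Nes*, *Hes1* and *Sox2* were all detected, with a summed level of 6361 to 6658 CPM, which are counts scaled to a fixed total per sum, in the 4 sums. Of the oligodendrocyte lineage markers, *Olig1* and *Olig2* were high, with a summed level of the list of 3402 to 3805 CPM in low and 3386 to 3476 CPM in high PLIN2-GFP NSPCs. The microglial markers *Aif1*, *Cx3cr1* and *Csf1r* had no row in the table analysed here. Of the neuronal markers *Dcx* and *Tubb3* and of the oligodendrocyte markers *Mbp* and *Sox10* had no row either, so nothing can be said of their level. The neuronal markers with a row, *Rbfox3* and *Dlg4*, summed to 48.6 to 64.3 CPM, of which *Dlg4* made up 41.1 to 48.5 CPM. Astrocyte markers summed to 8.49 to 24.3 CPM. Both plates hold the same line, so all p-values measure the spread between 2 plates of 1 culture line, which may be technical.

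Together the 80 genes took 2.52% of all UMIs. In CPM after scaling by edgeR's TMM factors, the 78 genes that passed the filter on low counts had mean levels between 21.8 and 1942, with a median of 233.9 against 42.7 over all genes tested. Since SORT-seq counts the 3′ end of a molecule, levels were compared between genes without a correction for length. The 2 genes that did not pass were *Cox7a1*, with 4 UMIs in all cells, and *Ndufb4c*, with 12.99.

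**Figure D1:**
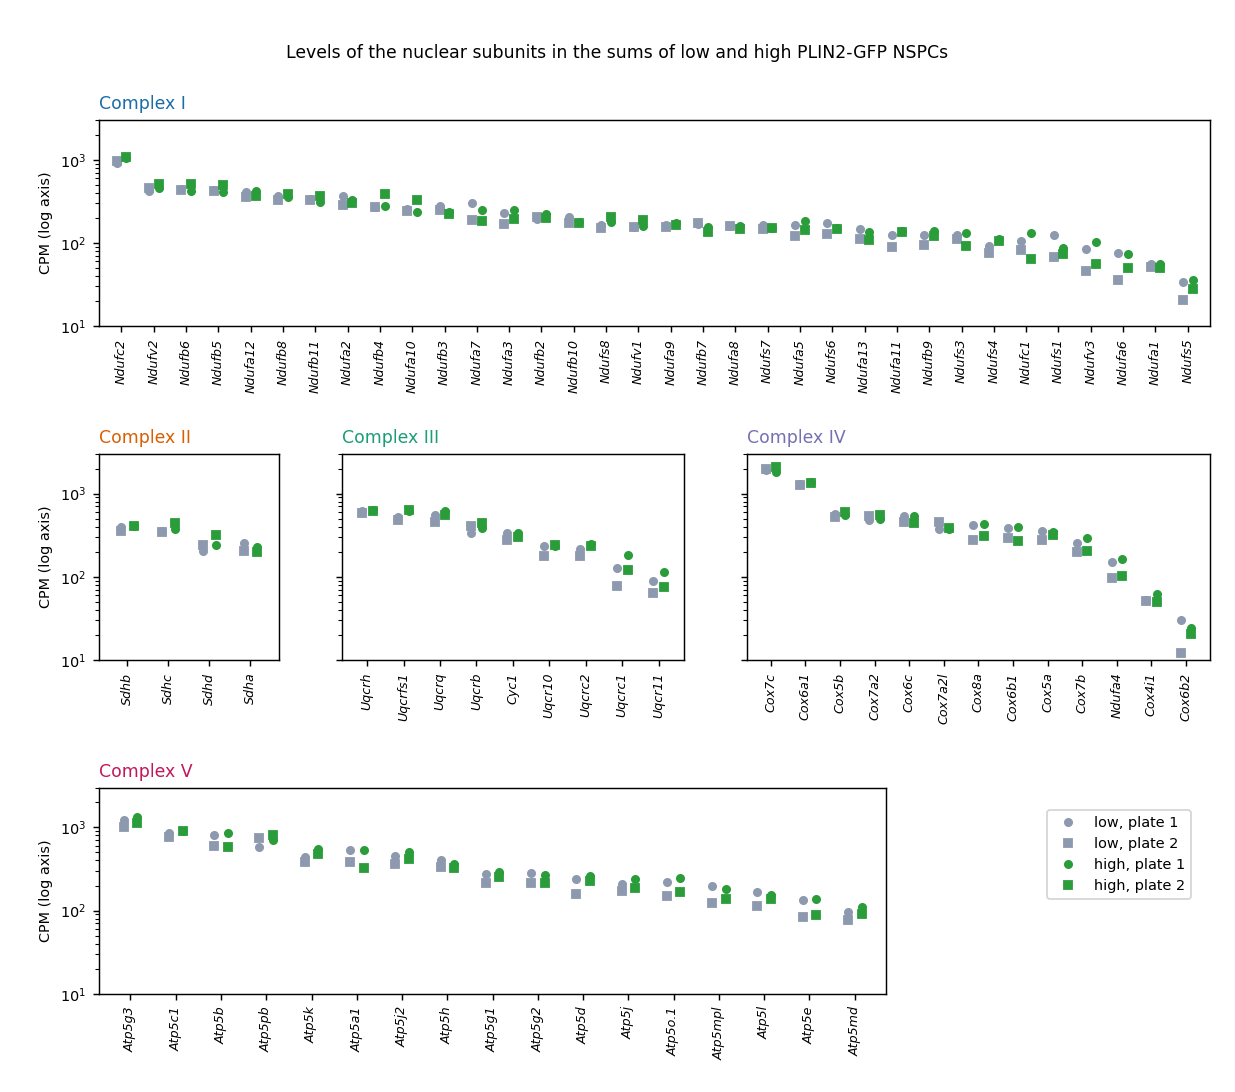
Level of 77 of the 78 nuclear OXPHOS genes tested, in CPM on a log axis, by complex and in order of its mean. Low PLIN2-GFP NSPCs are grey and high ones green, with circles for plate 1 and squares for plate 2. *Cox7c* stands highest at 1821 to 2081 CPM and *Cox6b2* lowest at 12.1 to 30.2 CPM, and for most genes the marks of the 4 sums lie close together.

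Complex IV held the gene with the highest level. *Cox7c*, a small structural subunit, had 1912 and 1953 CPM in low and 1821 and 2081 CPM in high cells, plate 1 first. *Cox6a1* followed with 1311 and 1284 CPM in low and 1395 and 1340 CPM in high, and *Cox5b* with 567 and 524 CPM in low and 550 and 605 CPM in high. *Cox7c* thus stood above *Cox6a1* in every sum by more than the spread between sums. *Cox5b* was counted below both in every sum, but 41.9% of its values above 0 were not whole numbers, so its level is uncertain.

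In complex V, the first place went to *Atp5g3*, which codes for the membrane ring subunit c, with 1220 and 998 CPM in low and 1348 and 1117 CPM in high PLIN2-GFP NSPCs. *Atp5c1* (776 to 917 CPM) and *Atp5b* (587 to 858 CPM), for the central stalk and the catalytic subunit, came next, and their ranges overlapped. The other genes for the same subunit c were lower, with 214.7 to 292.6 CPM for *Atp5g1* and 212.2 to 286.3 CPM for *Atp5g2*, whose ranges overlapped. For *Atp5g2*, 50.2% of the values above 0 were not whole numbers. How UMIs that match several genes were counted is not given in the sources used here, so its level is uncertain.

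*Ndufc2*, an accessory membrane subunit, led complex I with 927 and 959 CPM in low and 1058 and 1093 CPM in high PLIN2-GFP NSPCs. *Ndufv2*, of the NADH-oxidising module, had 416 to 512 CPM and *Ndufb6* 421 to 515 CPM, which could not be put in order. *Uqcrh*, the hinge protein of complex III, had 592 to 640 CPM, *Uqcrfs1*, the Rieske iron-sulfur protein, 479 to 631 CPM, and *Uqcrq* 452 to 621 CPM. In complex II, *Sdhb* was at 357 to 407 CPM, *Sdhc* at 341 to 437 CPM, *Sdhd* at 202.3 to 321.4 CPM and *Sdha*, the flavoprotein that binds succinate, at 196.7 to 257.4 CPM.

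Several subunits of complex IV exist as tissue isoforms, and where both forms of a pair were measured, the common form was higher. *Cox6a1* had 4534 UMIs, and *Cox6a2*, its muscle form, was not analysed here. *Cox7a2* had 478 to 554 CPM, against 4 UMIs in all for the muscle form *Cox7a1*. The testis form *Cox6b2* was detected at 12.1 to 30.2 CPM, below the 267.4 to 392.7 CPM of *Cox6b1*. *Cox8a* had 275.3 to 428.7 CPM, and *Cox8b*, *Cox8c*, *Cox4i2* and *Ndufa4l2* were not analysed here. *Ndufa4* had 95.8 to 165.2 CPM. *Cox4i1*, which is the common form of a large subunit, was counted at only 50.1 to 62.2 CPM, but 65.6% of its values were not whole, as was the case for 71.9% of *Ndufs5*, 52.2% of *Ndufa13*, 41.9% of *Cox5b* and 35.5% of *Atp5o.1*. The levels of these genes are uncertain for the same reason. In all, 14 of the 80 genes had over 10% of values that were not whole, against a median of 0.73%.

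Whether the LD content of NSPCs goes with the expression of OXPHOS subunits was asked by comparing high with low PLIN2-GFP NSPCs. *Uqcrc1*, *Uqcrfs1* and *Atp5k* were higher in high PLIN2-GFP NSPCs, and 0 members were lower. *Uqcrc1* and *Uqcrfs1* belong to complex III. The fit was edgeR's quasi-likelihood test on the 4 sums with the plate as a block, and genes with a Benjamini-Hochberg adjusted p under 0.1 over the 8372 genes tested were called. Over all genes, 0.884% were called higher and 1.25% were called lower. At an unadjusted p under 0.05, 11 of the 78 members tested (14.1%) were higher and 0 lower, against 5.15% higher and 5.83% lower over all genes. All genes were not matched to the members for level, here or in later comparisons. Their median was 42.7 CPM against 233.9 CPM for the members. DESeq2 called 0 members in either direction, and over all genes it called 4 higher (0.0478%) and 8 lower.

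*Uqcrc1* codes for a core protein of complex III. On plates 1 and 2, low cells had 128.7 and 76.4 CPM, and high cells had 181.8 and 120.8 CPM. The categories overlapped between plates, but within each plate the high sum was above the low one. The log2 fold change was 0.56 ± 0.17 (SE, 2 plates, adjusted p = 0.0513), with 0.50 on plate 1 and 0.66 on plate 2. *Uqcrc1* lies on chromosome 9, from 108936633 to 108949623 on the plus strand of GRCm38.

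*Uqcrfs1*, which codes for the Rieske protein that passes electrons to cytochrome c1, had 521 and 479 CPM in low and 620 and 631 CPM in high PLIN2-GFP NSPCs. Here both high sums were above both low sums. The log2 fold change was 0.32 ± 0.10 (SE, adjusted p = 0.0675). *Atp5k*, the small membrane subunit e of ATP synthase, had 437 and 378 CPM in low and 546 and 480 CPM in high, again without overlap. Its log2 fold change was 0.33 ± 0.11 (SE, adjusted p = 0.0863), with 0.32 and 0.34 on plates 1 and 2.

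The members next in order of p were not close to the threshold of 0.1. The first was *Sdhd*, a membrane anchor of complex II, with a log2 fold change of 0.34 ± 0.13 (adjusted p = 0.231). *Atp5pb*, the peripheral stalk subunit b, had 574 and 737 CPM in low and 709 and 810 CPM in high PLIN2-GFP NSPCs, a log2 fold change of 0.22 ± 0.09 (adjusted p = 0.303). *Ndufb4* followed with 0.29 ± 0.12 (adjusted p = 0.308). *Ndufc2* and *Atp5pb* are named by the study for this experiment from the same cells, so their direction is no independent evidence. For *Ndufc2*, the values given above correspond to a log2 fold change of 0.19 ± 0.08 (adjusted p = 0.335), with both high sums above both low sums.

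**Figure D2:**
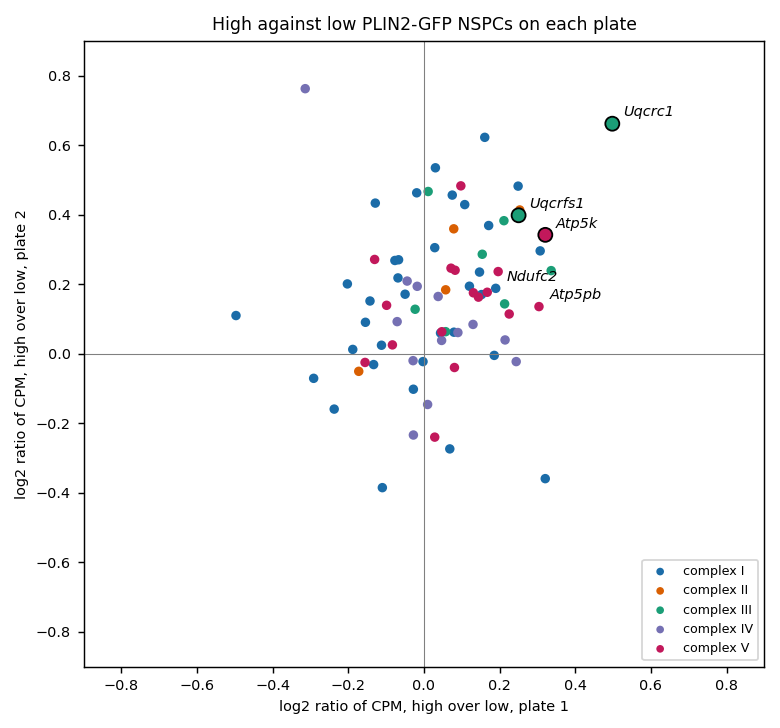
Log2 ratio of CPM of high over low PLIN2-GFP NSPCs on plate 1 (x axis) and plate 2 (y axis) for the 78 nuclear OXPHOS genes tested, coloured by complex. The large marks with a black rim are the 3 genes called, *Uqcrc1*, *Uqcrfs1* and *Atp5k*, and of the 78 genes 48 lie right of 0 and 61 above 0.

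By complex, the differences had a like sign but were small. The median log2 fold change was 0.09 over the 78 genes, against -0.00 over all genes tested, and 59 of 78 were above 0, against 4186 of 8372 over all genes. Complex III had a median of 0.22, with all 9 genes above 0 and 2 called. The median was 0.17 over the 4 genes of complex II, 0.15 over the 17 genes of complex V, 0.08 over 13 genes of complex IV and 0.07 over 35 genes of complex I, with 1 gene of complex V and 0 genes of the other complexes called. The plates differed in size, with a median of 0.05 on plate 1 and 0.17 on plate 2, and complex I had -0.00 on plate 1 and 0.17 on plate 2. Complex III had 0.21 and 0.29.

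The calls depended on the fit. Without the block of the plate, 0 members were called, and over all genes 0 (0%) were called higher and 1 lower. Leaving out the low or the high sum of plate 1 or of plate 2, which breaks a pair and so was done without the block, also gave 0, with medians between -0.00 (without the low sum of plate 2) and 0.21 (without the low sum of plate 1). Over all genes these fits called 6 without the high and 6 without the low sum of plate 1, and 7 and 22 without those of plate 2 of the genes tested. With library totals in place of TMM factors, 8 members were called higher (10.3%, against 1.77% of all genes), and over all genes 64.6% of the calls were then higher, as against 41.3% with TMM factors. Adding the phase as a term gave 5, with 1.8% of all genes called higher, and in cells of G1 phase alone the only member called was *Uqcrc2*, with 0.151% of all genes. With cells thinned to 5000 UMIs each, *Uqcrc1* was the only one called, with 0.515% of all genes, while the median over the members rose to 0.17 and 65 of 78 had a positive log2 fold change.

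As a share of UMIs, without scaling factors, the 80 genes stood at 2.50% and 2.25% in low cells of plates 1 and 2 and at 2.73% and 2.59% in high cells, a difference of 0.285 ± 0.075 percentage points (SD, n = 2 plates). Both high sums were above both low sums, and with 4 values no exact test can reach the threshold. Complex V was at 0.676% in low and 0.767% in high on plate 1, and at 0.566% and 0.648% on plate 2. Complex III was at 0.288% in low and 0.338% in high on plate 1, and at 0.260% and 0.322% on plate 2. A higher share in high cells was not particular to the members. Mitochondrial ribosomal proteins took 0.512% and 0.520% in low and 0.561% and 0.582% in high cells of plates 1 and 2. Mitochondrial mRNAs took 9.39% and 8.87% in low and 8.57% and 8.28% in high, and cytosolic ribosomal proteins 9.32% and 9.67% in low and 8.59% and 9.09% in high.

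Other genes of the pathway were set beside the members. Of the 13 mRNAs encoded by mitochondrial DNA, 5 were lower and 0 higher in high PLIN2-GFP NSPCs, with a median log2 fold change of -0.14. The 5 were *mt-Nd1*, *mt-Nd2*, *mt-Cytb*, *mt-Co2* and *mt-Atp6*, with log2 fold changes between -0.18 and -0.24. Accordingly, low cells of plates 1 and 2 had 3.76 and 3.95 UMIs of mitochondrial mRNAs per UMI of a member, and high cells had 3.14 and 3.20. Of the 82 cytosolic ribosomal protein genes, 80 were tested, 6 were lower and 0 higher, with a median of -0.17. Of 78 mitochondrial ribosomal proteins 0 were called, with a median of 0.09, and the same count held for 14 citrate cycle enzymes (median 0.12), 34 tested assembly factors (median 0.13) and 10 tested regulators such as *Nrf1* and *Gabpa* (median 0.03). At an unadjusted p under 0.05, 3 of the mitochondrial ribosomal proteins, 4 of the citrate cycle enzymes and 3 of the assembly factors were higher and 1 of the regulators was lower. That is 3.85%, 28.6% and 8.82% higher, against 5.15% over all genes. Lower at this level were 10 of the 13 mitochondrial mRNAs and 45 of the 80 cytosolic ribosomal protein genes tested, against 5.83% over all genes. At the adjusted level, 1.25% of all genes were called lower. *Cycs*, which codes for cytochrome c itself, had a log2 fold change of 0.13 (adjusted p = 0.651), and *Ndufab1*, the acyl carrier protein of complex I, which the symbol rule does not match, 0.14 (adjusted p = 0.712).

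Many nuclear OXPHOS genes are known to be driven from promoters that hold sites for NRF1, for ETS factors such as GABP and for YY1. Promoters of 300 bases, from 250 before to 50 after the start, were taken from RefSeq on GRCm38.p6, in which 65 of the 80 members were found by symbol. The letters GCATGCGC, the core of the NRF1 site, stood on either strand in the promoters of 10 of the 65 members, which is 15.4%, against 3.05% of all 27025 genes. CCGGAAG, an ETS core, stood in 17 of 65, or 26.2%, against 9.93%, and ATGGCGGC, a YY1 core, in 6 of 65, or 9.23%, against 2.6%. The YY1 core was found in 6 of 31 promoters of complex I, those of *Ndufa7*, *Ndufa9*, *Ndufb5*, *Ndufs4*, *Ndufs6* and *Ndufs7*, and in 0 of the 34 other members matched. GCATGCGC overlaps its own reverse complement, so a single stretch can match on both strands. The 27025 genes are all those with a promoter in this set, whether or not they were expressed here. They were not matched to the members for level or base content. These matches describe letters only and no binding was measured here.

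The promoters of the 3 genes called in high PLIN2-GFP NSPCs are shown with those of *Cox7c*, which had the highest level, and *Sdhb*, which was called lower in S and in G2/M phase. They are written 5′ to 3′ on the strand of the gene, with the letters of the NRF1, ETS and YY1 cores in capitals. *Uqcrc1* is chr9:108936398-108936697 on the plus strand, *Uqcrfs1* chr13:30545267-30545566 on the minus strand, *Atp5k* chr5:108434350-108434649 on the minus strand, *Cox7c* chr13:86046746-86047045 on the minus strand and *Sdhb* chr4:140961021-140961320 on the plus strand.
Uqcrc1: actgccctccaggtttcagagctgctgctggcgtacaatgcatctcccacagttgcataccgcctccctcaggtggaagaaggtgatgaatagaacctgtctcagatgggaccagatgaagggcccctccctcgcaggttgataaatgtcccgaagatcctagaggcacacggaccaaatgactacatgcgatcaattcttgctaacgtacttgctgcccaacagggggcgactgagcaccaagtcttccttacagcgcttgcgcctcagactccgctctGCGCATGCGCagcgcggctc
Uqcrfs1: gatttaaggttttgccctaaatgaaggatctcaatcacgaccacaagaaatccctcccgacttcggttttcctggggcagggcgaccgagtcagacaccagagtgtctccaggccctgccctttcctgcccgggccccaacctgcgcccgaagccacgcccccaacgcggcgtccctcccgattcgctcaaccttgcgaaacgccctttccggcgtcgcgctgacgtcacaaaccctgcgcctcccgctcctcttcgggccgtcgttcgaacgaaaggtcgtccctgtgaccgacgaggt
Atp5k: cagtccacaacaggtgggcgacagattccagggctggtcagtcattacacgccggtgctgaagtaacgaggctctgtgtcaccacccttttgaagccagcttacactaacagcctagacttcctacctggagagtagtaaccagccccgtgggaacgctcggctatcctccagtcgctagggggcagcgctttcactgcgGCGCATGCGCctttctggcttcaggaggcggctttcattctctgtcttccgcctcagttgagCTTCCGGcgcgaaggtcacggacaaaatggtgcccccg
Cox7c: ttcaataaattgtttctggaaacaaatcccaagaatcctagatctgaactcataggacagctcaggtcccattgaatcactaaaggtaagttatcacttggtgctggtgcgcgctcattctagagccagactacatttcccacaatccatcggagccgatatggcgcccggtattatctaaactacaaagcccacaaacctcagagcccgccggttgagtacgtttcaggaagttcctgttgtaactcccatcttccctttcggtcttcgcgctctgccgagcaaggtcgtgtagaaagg
Sdhb: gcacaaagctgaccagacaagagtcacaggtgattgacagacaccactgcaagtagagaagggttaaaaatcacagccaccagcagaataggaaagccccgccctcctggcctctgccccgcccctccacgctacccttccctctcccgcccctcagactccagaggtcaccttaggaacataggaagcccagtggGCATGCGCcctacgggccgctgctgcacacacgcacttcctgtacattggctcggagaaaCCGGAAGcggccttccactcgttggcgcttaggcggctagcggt

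*Uqcrc1* and *Atp5k* each held an NRF1 core that reads on both strands, after the start in *Uqcrc1* and before it in *Atp5k*, which also held an ETS core. *Sdhb* had an NRF1 core before and an ETS core after the start. In *Uqcrfs1* and *Cox7c* none of the 3 cores stood in these windows.

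Cells in S and in G2/M phase were compared with cells in G1 phase to follow the members over the cell cycle. The authors assigned the phases from cell cycle genes, of which no member is one. Of the 78 members tested, 20 were lower in S than in G1 phase and 0 were higher, and 17 were lower in G2/M than in G1 phase and 0 were higher. Over the 7667 genes tested, 394 (5.14%) were called lower and 584 (7.62%) higher in S, and 566 (7.38%) lower and 718 (9.36%) higher in G2/M. Of the members, 25.6% were thus called lower in S and 21.8% in G2/M. The genes were again not matched for level, and whether the higher level of the members raised their share of calls was not tested. At an unadjusted p under 0.05, 37 members (47.4%) were lower in S and 26 (33.3%) in G2/M, with 0 higher in both. Over all genes, 10.3% were lower and 12.1% higher in S at this level, and 11.3% lower and 12.4% higher in G2/M. Both comparisons share the G1 sums, and each is given with its own values.

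In S phase, 8 of the 13 tested genes of complex IV were lower, the most of any complex. *Cox6c*, a small nuclear subunit, had 678 and 563 CPM in G1 and 430 and 371 CPM in S phase on plates 1 and 2. All S sums lay below all G1 sums, with a log2 fold change of -0.64 ± 0.11 (SE, adjusted p = 0.000209). *Cox7c* went from 2041 and 2479 CPM to 1803 and 1803 CPM, a log2 fold change of -0.32 ± 0.08 (adjusted p = 0.00449).

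*Cox8a* had 500.9 and 350.4 CPM in G1 and 371.1 and 252.2 CPM in S phase, with -0.45 ± 0.13 (adjusted p = 0.018). *Cox7a2l* was at -0.43 ± 0.12 (adjusted p = 0.0232) and *Cox5b* at -0.35 ± 0.11 (adjusted p = 0.0343). The 3 other genes of the complex were *Cox6b1*, *Cox6a1* and the testis form *Cox6b2*. *Cox6b2* had 33 and 14 counts in the G1 sums and 6 and 7 in the S sums, so that its log2 fold change of -1.52 ± 0.43 (adjusted p = 0.0197) rests on few molecules.

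In complex II, *Sdhb*, the iron-sulfur subunit, had 473 and 460 CPM in G1 and 336 and 328 CPM in S phase, without overlap. Its log2 fold change was -0.49 ± 0.12 (SE, adjusted p = 0.00702). *Sdhc*, a membrane anchor, went from 414 and 482 CPM to 318 and 333 CPM, with -0.45 ± 0.12 (adjusted p = 0.0161). For *Sdha* and *Sdhd* the values were -0.36 ± 0.15 (adjusted p = 0.143) and -0.16 ± 0.14 (adjusted p = 0.567).

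*Ndufc2* of complex I had 1153 and 1173 CPM in G1 and 924 and 947 CPM in S phase, with a log2 fold change of -0.32 ± 0.09 (adjusted p = 0.0165). *Ndufs8*, *Ndufb7* and *Ndufb5* were also called, so that 4 of 35 genes of complex I were lower, the smallest share of the complexes. In complex III, *Uqcrh* had 705 and 749 CPM in G1 and 621 and 522 CPM in S phase, with -0.35 ± 0.11 (adjusted p = 0.0325), and *Uqcrc2* and *Uqcrfs1* were called too. In contrast, *Uqcrc1* had 156.9 and 105.3 CPM in G1 and 175.7 and 116.7 CPM in S phase, with 0.17 ± 0.19 (adjusted p = 0.661), and it was the only 1 of 78 members with a value above 0. In complex V, the genes called were *Atp5g3*, *Atp5e* and *Atp5j2*, at 3 of 17.

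The members just inside of the threshold in S phase were *Uqcrfs1* (adjusted p = 0.0953), *Atp5j2* (0.0913) and *Atp5e* (0.0777). Just outside were *Atp5b* (adjusted p = 0.107), *Uqcr11* (0.109) and *Ndufv1* (0.117). The median log2 fold change of the 78 members was -0.29, against -0.02 over all genes tested. It was -0.27 for complex I, -0.41 for complex II, -0.28 for complex III, -0.33 for complex IV and -0.26 for complex V.

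**Figure D3:**
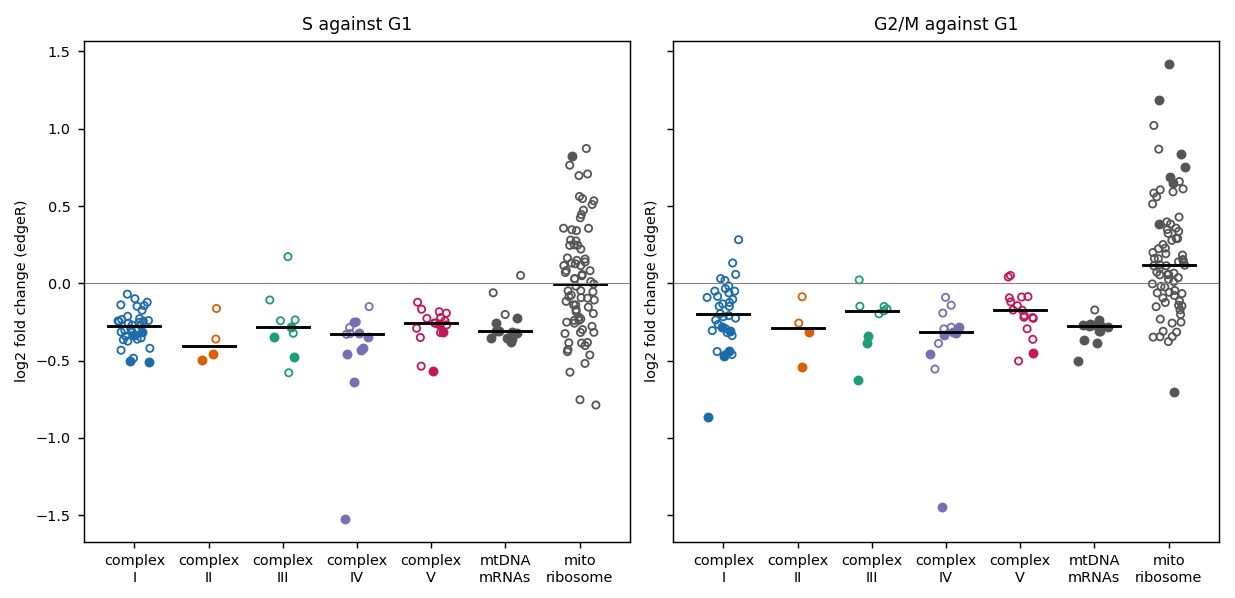
Log2 fold change from edgeR of S against G1 (left) and of G2/M against G1 (right) for each gene, by complex, with the 13 mRNAs of mitochondrial DNA and the mitochondrial ribosomal proteins beside them. Filled marks are genes called, open marks are the others and black bars are medians. The bars of all complexes and of the mitochondrial mRNAs lie below 0 in both panels, while that of the mitochondrial ribosomal proteins lies at -0.00 in S and at 0.12 in G2/M.

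In G2/M phase, *Cox7c* had 1746 and 1876 CPM, with a log2 fold change from G1 of -0.31 ± 0.07 (adjusted p = 0.00379). *Cox6c* had 462 and 445 CPM, again below both G1 sums, with -0.46 ± 0.11 (adjusted p = 0.00401). *Cox6b2*, *Cox8a*, *Cox5b* and *Cox7a2l* were called as well, which makes 6 of 13 in complex IV.

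*Sdha* had 299.98 and 234.9 CPM in G1 and 189.04 and 181.1 CPM in G2/M phase, with -0.54 ± 0.15 (adjusted p = 0.0147). *Sdhb* was the other subunit of complex II that was called. In complex I, *Ndufc2* was at 911 and 1004 CPM in G2/M phase, with -0.28 ± 0.09 (adjusted p = 0.0254). *Ndufa1*, an accessory subunit, went from 71.6 and 64.8 CPM to 37.5 and 37.4 CPM, the largest fall among called members but for *Cox6b2*, with -0.87 ± 0.28 (adjusted p = 0.036). *Ndufa9* and *Ndufb5* were also lower. For *Ndufa1*, 18.5% of values were not whole.

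*Uqcrh* had 564 and 581 CPM in G2/M phase, below the G1 sums, with -0.34 ± 0.11 (adjusted p = 0.0278), and *Uqcr11* was at -0.63 ± 0.22 (adjusted p = 0.0587). With *Uqcrc2*, 3 of 9 genes of complex III were called, against 1 of 17, *Atp5mpl*, in complex V. Just inside of the threshold were *Uqcrc2* (adjusted p = 0.0977), *Cox7a2l* (0.0842) and *Atp5mpl* (0.0815), and just outside were *Cox6a1* (adjusted p = 0.134), *Atp5b* (0.157) and *Cox6b1* (0.163). The median over the 78 members was -0.21, against -0.01 over all genes. By complex it was -0.20, -0.29, -0.18, -0.31 and -0.17 for complex I to V.

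**Figure D4:**
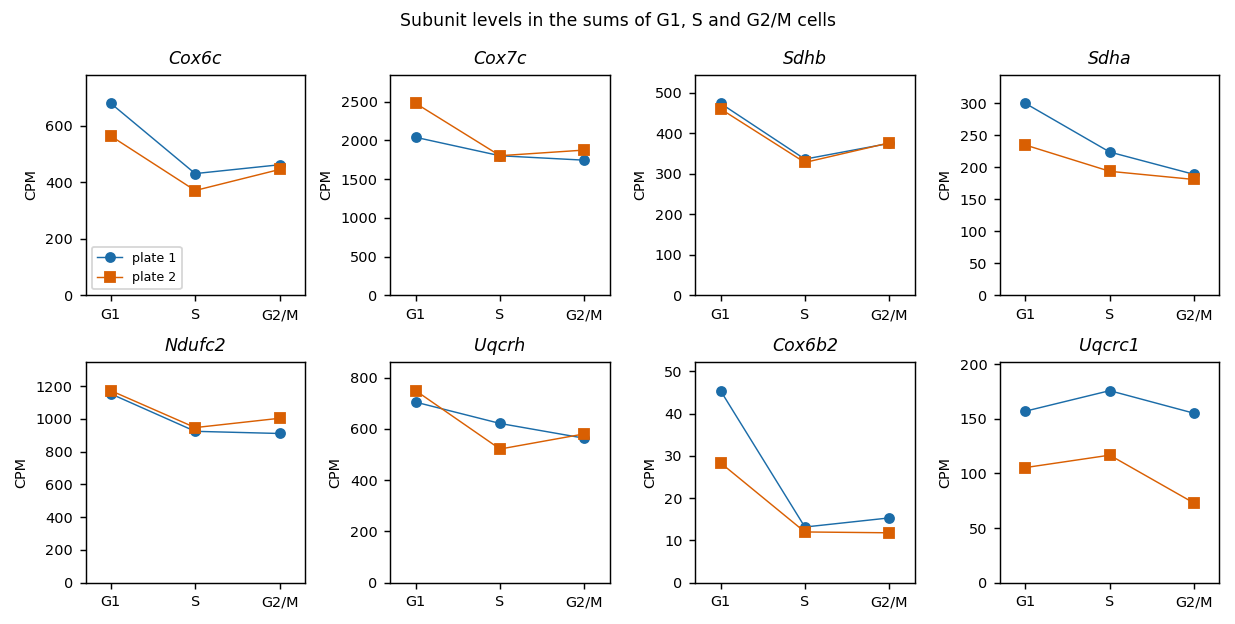
Level in CPM (y axis from 0) of 8 nuclear OXPHOS genes in the sums of G1, S and G2/M cells (x axis), with blue circles for plate 1 and orange squares for plate 2. The G1 mark of each plate is above its S and G2/M marks in all panels but that of *Uqcrc1*, whose S sums of 175.7 and 116.7 CPM lie above its G1 sums of 156.9 and 105.3 CPM.

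Between S and G2/M phase, 0 members were called by edgeR, while over all genes 2.86% were called higher and 2.14% lower. At an unadjusted p under 0.05, 3 members (3.85%) were higher in G2/M and 0 lower, against 7.13% higher and 6.7% lower over all genes. The order of these phases could therefore not be told for any member. The median log2 fold change of G2/M over S was 0.09. All 20 calls in S and all 17 in G2/M had the same sign on both plates.

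As in the comparison of categories, these counts moved with the fit. Without the block of the plate, 2 members were called in S (*Cox6b2* and *Cox6c*) and 2 in G2/M (*Cox6b2* and *Ndufa1*), and DESeq2 called 1 (*Cox6c*) and 0 lower, with 0 higher in both. Over all genes, 1.3% in S and 2.96% in G2/M were called lower without the block, and 0.457% and 1.13% by DESeq2, so the 2 members (2.56%) in G2/M without the block were no more than the share of all genes. With library totals in place of TMM factors there were 8 and 9, beside 3.26% and 6.42% of all genes, and over all genes 73.4% of the calls in S were then higher, as against 59.7%. Thinned cells gave 5 and 2 of 76 members (6.58% and 2.63%), against 3.57% and 5.82% of all genes, so that in G2/M phase the members' share was below that of all genes. Thinning left out 15 and 6 cells of G1, 7 and 1 of S and 12 and 4 of G2/M phase on plates 1 and 2. The category as a further term gave 28 and 23 of 76 (36.8% and 30.3%), against 7.65% and 11.1%. Leaving out the G1 or the S sum of plate 1 gave 9 and 10 calls in S, and that of plate 2 gave 9 and 8. Without the G2/M sum of plate 1, 10 were called in S and 0 in G2/M, and without that of plate 2 there were 17 and 3. G2/M had 3 calls without either G1 sum and 18 without either S sum. With 1 sum left out, 2.21% to 4.1% of all genes were called lower in S and 2% to 7.65% in G2/M, and the 3 calls (3.85%) stand beside 3.36% and 4.17% of all genes without the G1 sum of plates 1 and 2 and 2.79% without the G2/M sum of plate 2. *Cox6c* was called lower in S phase in all 16 alternatives, and *Sdhb* in 14 of 16.

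The other lists are given beside the shares of all genes, which were 5.14% lower and 7.62% higher in S and 7.38% lower and 9.36% higher in G2/M. Of the 13 mitochondrial mRNAs, 10 were lower in S and 12 in G2/M phase, with medians of -0.31 and -0.28, and the number of mitochondrial UMIs per member UMI stayed between 3.30 and 3.67 in all 6 sums. Of 77 mitochondrial ribosomal proteins tested, 1 (1.3%) was higher and 0 were lower in S, and 7 (9.09%, close to the share of all genes) were higher and 1 (1.3%) was lower in G2/M, with medians of -0.00 and 0.12. Of 30 assembly factors tested, *Ndufaf8* and *Sco2*, which serves the copper site of complex IV, were lower in S (6.67%) and *Sdhaf2* in G2/M (3.33%). Among 8 tested regulators, *Pprc1* was higher in S (0.93 ± 0.31, adjusted p = 0.0552) and *Gabpb1*, a subunit of GABP, in G2/M (1.37 ± 0.33, adjusted p = 0.00377). *Ndufab1* was higher in G2/M than in S phase (0.44 ± 0.12, adjusted p = 0.0337). Of 80 cytosolic ribosomal protein genes tested, 5 (6.25%) were lower in S, and 5 (6.25%) were higher and 1 (1.25%) was lower in G2/M, with medians of -0.07 and 0.07. Of the 5 that were higher in G2/M, *Rps19bp1* shares the symbol but is no ribosomal protein.

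These values are relative to all UMIs of a sum. The members took 2.83% and 2.63% of the UMIs of G1 cells on plates 1 and 2, 2.45% and 2.26% in S and 2.50% and 2.35% in G2/M phase. The mean number of member UMIs per cell was 268.4 and 270.5 in G1, 274.9 and 366.1 in S and 264.5 and 326.9 in G2/M phase. In S it was above G1 on both plates, and in G2/M it was below G1 on plate 1 and above it on plate 2. The total per cell rose from 9474 and 10281 UMIs in G1 to 11229 and 16193 in S and 10582 and 13895 in G2/M phase. In S phase, the lower share thus went with a larger total per cell and not with fewer member UMIs per cell. The total was also larger in G2/M than in G1 phase on both plates. For a single gene, such sums do not tell a change in the number of cells with a transcript from a change in molecules per cell. The percentage of mitochondrial counts per cell also moved with the phase, with medians of 14.04% and 13.84% in G1, 11.77% and 11.31% in S and 11.94% and 11.85% in G2/M phase. Its part in the result was not tested.

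Whether the difference between high and low PLIN2-GFP NSPCs varied with the phase was tested in 12 sums of plate, phase and category. Of the 78 members, 0 were called for the interaction by edgeR, and 2, *Ndufa4* and *Ndufa13*, had an unadjusted value under 0.05, as had 5.51% of all genes. The adjusted p from edgeR's fit across all genes was 0.772 for *Ndufa4*, and DESeq2 was not run for the interaction. Over the 6190 genes tested, 4 were called, which is 0.0646%. Within each phase, the members had a median log2 ratio of high over low above 0 on both plates, with 0.11 and 0.07 in G1, 0.13 and 0.20 in S and 0.06 and 0.27 in G2/M phase for plates 1 and 2. The median of complex III lay between 0.18 and 0.32 in these 6 comparisons, whereas that of complex I lay between -0.08 and 0.29.

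**Figure D5:**
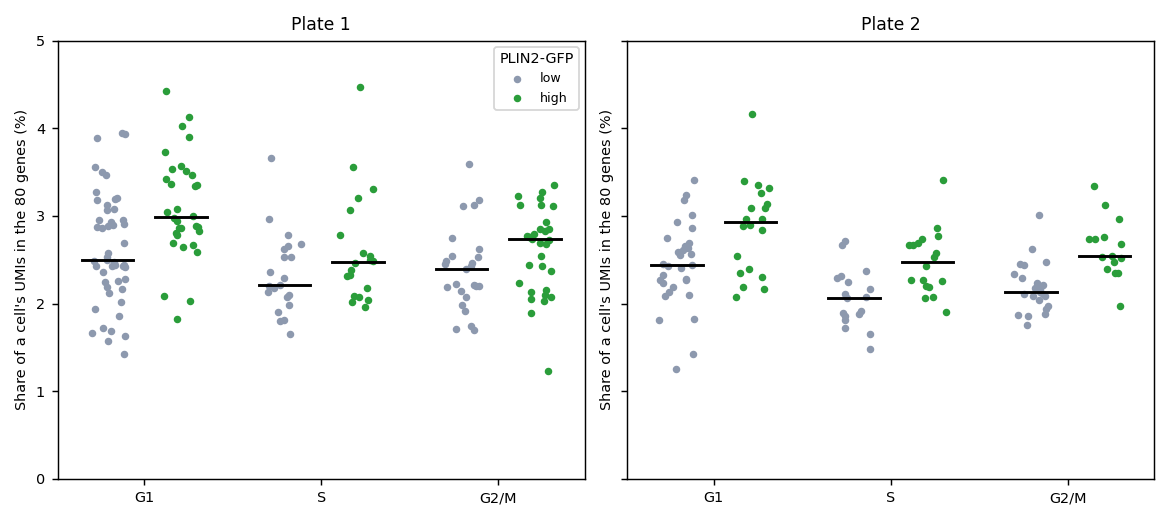
Share of each cell's UMIs that fell on the 80 nuclear OXPHOS genes (y axis, in percent), by phase, for low (grey) and high (green) PLIN2-GFP NSPCs on plate 1 (left) and plate 2 (right). Each point is 1 cell and black bars are medians. The bar of high PLIN2-GFP NSPCs is above that of low in all 6 pairs, and the spread between cells, from 1.23% to 4.47% on plate 1, is wider than the distance between bars.

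Over single cells, the share ran from 1.23% to 4.47% on plate 1 and from 1.25% to 4.16% on plate 2. For G1 phase, the 49 low cells of plate 1 had a median of 2.50% and the 32 high cells one of 2.99%. The 31 low and 20 high cells of plate 2 had 2.44% and 2.93%. S cells of plate 1 had medians of 2.21% (low) and 2.48% (high), and those of plate 2 had 2.07% and 2.48%. G2/M cells had 2.39% and 2.74% on plate 1 and 2.13% and 2.55% on plate 2.

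The deposited clusters were made from the same genes of the same cells, so their values are a description. Cluster 0 held 92 cells on plate 1, of which 66.3% were high PLIN2-GFP NSPCs, and 63 on plate 2, of which 63.5% were. Cluster 1 held 87 and 62 cells, of which 26.4% and 20.97% were high. The members took 2.77% and 2.56% of UMIs in cluster 0 and 2.48% and 2.23% in cluster 1, a difference of 0.307 ± 0.030 percentage points (SD, n = 2 plates).

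Complex III had a median log2 ratio of cluster 0 over cluster 1 of 0.29 and 0.23 on plates 1 and 2, with all 9 genes above 0 on both, and complex I of 0.05 and 0.13. On plate 1, low PLIN2-GFP NSPCs of cluster 0 had a member share of 2.63% and those of cluster 1 of 2.44%, and high PLIN2-GFP NSPCs 2.81% and 2.55%. The same order held on plate 2, with 2.48% and 2.15% for low and 2.60% and 2.54% for high. Cytosolic ribosomal protein genes took 8.20% and 8.69% of UMIs in cluster 0 and 9.64% and 10.2% in cluster 1.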

How the data were processed

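SORT-seq libraries (CEL-Seq2 chemistry) were assigned to GRCm38 with Salmon/alevin. The annotation release is not given in the sources used here. The authors deposited an estimated count of UMIs per gene and cell, 87.1% of whose values above 0 were whole, and a table of cells with the count of genes detected, the percentage of mitochondrial counts, plate, category, phase and cluster. The authors filtered cells on mitochondrial counts and doublets, and no doublet caller was run here. Columns of counts were joined to cells by equal total and number of genes, which placed 304 of 304.

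Estimated counts were summed per plate and group and rounded. edgeR 4.0.16 (R 4.3.3) was run with TMM factors, filterByExpr, a quasi-likelihood fit and the plate as a block, with Benjamini-Hochberg adjustment over all genes tested and a level of 0.1. SEs are the fold change over the root of F. Residual degrees of freedom were 1 for categories and 2 for phases. Replicate numbers pair the sums, since both categories were on each plate per the labels. The correlation of same-plate deviations from the category means was 0.298. With 4 sums an exact permutation test cannot go below p = 0.333, so shares have no p. Scripts were tested on simulated data. The comparison of G2/M with S was added after the data were seen.

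Members and lists were chosen with earlier results of these data known. Named were members called with 1 sign on both plates (at most 10 per comparison), *Ndufc2* and *Atp5pb*, the 3 highest of each complex, tissue isoforms, and those next to the threshold. Results on some genes are not reported here. Other genes named to complete a count of calls were chosen after their values were seen. Alternatives were no block, DESeq2 1.42.0, RLE factors, no filter, no mitochondrial genes, thinning to 5000 UMIs, other terms or cells, and each sum left out. Counting depth limits precision, and intervals between cells were not used as error.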

Additional observations from a re-analysis of the deposited data

How the results depend on the processing

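The number of members called depended on the setting, while the direction of the phase differences did not. For high against low PLIN2-GFP NSPCs, 3 were called higher, against 0 without the replicate block of the plate, 0 with DESeq2, 1 with thinned cells, 1 in G1 cells, 5 with the phase as a term and 0 with any 1 sum left out, where the median ranged from -0.0034 to 0.21. For S against G1, 20 were called lower, against 2 without the replicate block, 1 with DESeq2, 5 with thinned cells and 8 to 17 with 1 sum left out. The median of -0.29 became -0.30 without the block, -0.28 with DESeq2, -0.28 with RLE factors, -0.31 with no filter, -0.26 with thinned cells, -0.30 with the category as a term and -0.33 to -0.28 with 1 sum left out. For G2/M against G1, 17 were called lower, against 2 without the replicate block, 0 with DESeq2, 9 with no filter, 2 with thinned cells and 0 to 18 with 1 sum left out, where the median ranged from -0.21 to -0.17. That median of -0.21 became -0.24 with thinned cells and -0.23 with the category as a term.

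Settings chosen after seeing the data gave the following. With library totals, 8 members were higher in high PLIN2-GFP NSPCs, 8 lower in S (median -0.21) and 9 lower in G2/M (median -0.18). In cells with 8000 to 16000 UMIs, the median was 0.22 for high against low, 6 were lower in S (median -0.26) and 5 in G2/M (median -0.24). In cells under 20% mitochondrial counts, the median in S was -0.28. As a median over cells, the difference in share became 0.390 percentage points between categories and 0.354 between clusters. In the sums, the difference between categories was 0.232 and 0.338 percentage points on plates 1 and 2. The cause of these changes was not tested. Where 1 sum was left out, the single sum of its group was taken to vary as the other groups do. With 1 or 2 residual degrees of freedom from 2 plates of 1 line, the spread is known only roughly.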
